A study of Arabidopsis thaliana with 25 samples.

Results

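Summits of 4 transcript elongation factors that fell inside protein-coding genes shorter than 1000 bp are described here, from chromatin immunoprecipitation followed by sequencing (ChIP-seq) in Arabidopsis thaliana seedlings of ecotype Col-0. A summit is the single base at which a called peak is highest. A summit was taken when it lay inside exactly 1 protein-coding gene and that gene, from first to last annotated base, was under 1000 bp long. Of 30216 summits in 8 lists, 25720 lay inside exactly 1 protein-coding gene, and 1293 of these were in genes under 1000 bp, which is 5.03% (exact Clopper-Pearson 95% interval 4.76 to 5.30). They lay in 438 of the 4377 annotated genes under 1000 bp, called short genes from here on. A further 267 summits touched a short gene that overlapped another coding gene and were not taken.

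The study mapped SPT5, ELF7, SSRP1 and SPT16 and 2 phosphorylated forms of RNA polymerase II (RNAPII), the form with serine 2 phosphate (S2P) and the form with serine 5 phosphate (S5P). Of the 25 samples, each factor accounted for 4 ChIP libraries and each RNAPII form for 2, and 5 were inputs, all from Col-0 seedlings kept under 16 h of light at 21 °C and 8 h of darkness at 18 °C. A protocol for heat at 44 °C for 10 min is attached to every sample, but no label names a heated or an unheated sample, and no such groups were formed. The factors were precipitated with antibodies against the proteins themselves, no transgene is named, and the seedlings' age is not given in the sources used. Each of the 8 lists set 1 factor over 1 RNAPII form, so the names below read, for example, ELF7 over S2P.

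During transcription RNAPII carries a long repetitive tail whose phosphorylation changes as it moves. Serine 5 phosphate is typical of RNAPII shortly after it has started, and serine 2 phosphate of RNAPII that elongates productively. SPT5 forms the SPT4-SPT5 complex, which binds RNAPII early and helps it to continue. ELF7 is the plant counterpart of the PAF1 subunit of the PAF1 complex, which joins elongating RNAPII and assists histone modification. SSRP1 and SPT16 together form FACT, a histone chaperone that loosens nucleosomes ahead of RNAPII and rebuilds them behind it. A short gene leaves little room for these stages to be separated along the DNA.

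The lists were read as factor libraries called against the named RNAPII libraries, a reading that rests on the list names, since no source used here gives the control or the pooling of libraries. On this reading a summit shows where the factor was in excess over that RNAPII form, not its occupancy alone. Lists of 1 factor share its libraries and lists over 1 form share the RNAPII libraries. No list has a value per library, so there is no replicate error and no test between groups. The sequencing depth is unknown, and the intervals below cover counting error only. Chromatin came from whole seedlings, so a factor bound in fewer cells and a factor bound less in each cell cannot be told apart. The lists hold no expression values, so neither the tissue label nor the activity of the short genes was checked.

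Short genes carried a summit less often than longer genes in each of the 8 lists. In at least 1 list, 10.0% of short genes were marked (9.13 to 10.9), against 24.9% of all 27444 protein-coding genes. Length classes here and below include their lower bound and leave out the upper. The share was 24.8% for genes of 1000 to 2000 bp, 29.8% for 2000 to 5000 bp and 26.1% for 5000 bp or more. A longer gene offers more bases for a summit. Per megabase of sequence that belongs to 1 gene only, the 8 lists together held 506 summits in short genes, 587 in genes of 1000 to 2000 bp, 403 in genes of 2000 to 5000 bp and 177 in genes of 5000 bp or more. Short genes were thus marked the least per gene of these classes but not the least per base. With scores of at least 10, the share of short genes marked was 3.18%.

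The counts differed between factors and RNAPII forms. SPT5 marked 17 short genes over S2P (0.388%, against 0.787% of all genes) and 84 over S5P (1.92%, against 5.07%). ELF7 marked 113 over S2P (2.58%, against 7.88%) and 19 over S5P (0.434%, against 1.84%). SPT5 therefore had more short genes over S5P and ELF7 more over S2P. SSRP1 marked 288 over S2P (6.58%, against 16.8%) and 195 over S5P (4.46%, against 11.7%). SPT16 marked 295 over S2P (6.74%, against 18.3%) and 264 over S5P (6.03%, against 16.2%). The FACT subunits thus accounted for most of the marked short genes, and 394 of the 438 (86.7 to 92.6%) were in at least 1 FACT list. In genes of 1000 bp or more 91.0% of the marked genes were.

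The balance between the RNAPII forms was set beside that of longer genes. Of SPT5 summits in short genes 16.8% came from the S2P list (10.1 to 25.6), against 20.1% in genes of 1000 to 2000 bp and 11.1% in genes of 2000 to 5000 bp. For ELF7 the share was 85.6% (78.4 to 91.1), against 82.9% and 78.6%. For SSRP1 it was 59.5% (55.0 to 63.9), against 59.3% and 57.0%, and for SPT16 52.5% (48.4 to 56.7), against 53.3% and 49.8%. In genes of 5000 bp or more the shares were 9.57% for SPT5, 71.9% for ELF7, 57.6% for SSRP1 and 50.7% for SPT16. Those of SPT5 and ELF7 lie below the short-gene intervals, and those of SSRP1 and SPT16 inside them. The differences between classes were not tested.

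Within the short genes the share marked climbed with length. Of 455 genes under 300 bp, 7 were marked in at least 1 list (1.54%), and of 1286 genes of 300 to 600 bp, 43 (3.34%, 2.43 to 4.48). The share was 10.0% of 1206 genes of 600 to 800 bp (8.40 to 11.9) and 18.7% of 1430 genes of 800 to 1000 bp (16.7 to 20.8). The marked short genes had a median length of 838.5 bp, against 676 bp for all short genes. Of the 7 marked genes under 300 bp, 6 were in SPT5 over S5P (0.485 to 2.85% of 455), 3 in SPT16 over S5P (0.136 to 1.91%) and 1 in SSRP1 over S5P, and these intervals overlap. ELF7 over S5P and all 4 lists over S2P had 0 of 455, with an exact interval of 0 to 0.807%. If a count of 0 is taken to allow 3 counts, the limit is 0.659%. From 300 to 600 bp SPT5 over S5P marked 14 genes, SPT16 over S5P 23, SSRP1 over S2P 18 and SPT16 over S2P 21, and from 800 to 1000 bp the same lists marked 40, 166, 190 and 200.

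**Figure D1:**
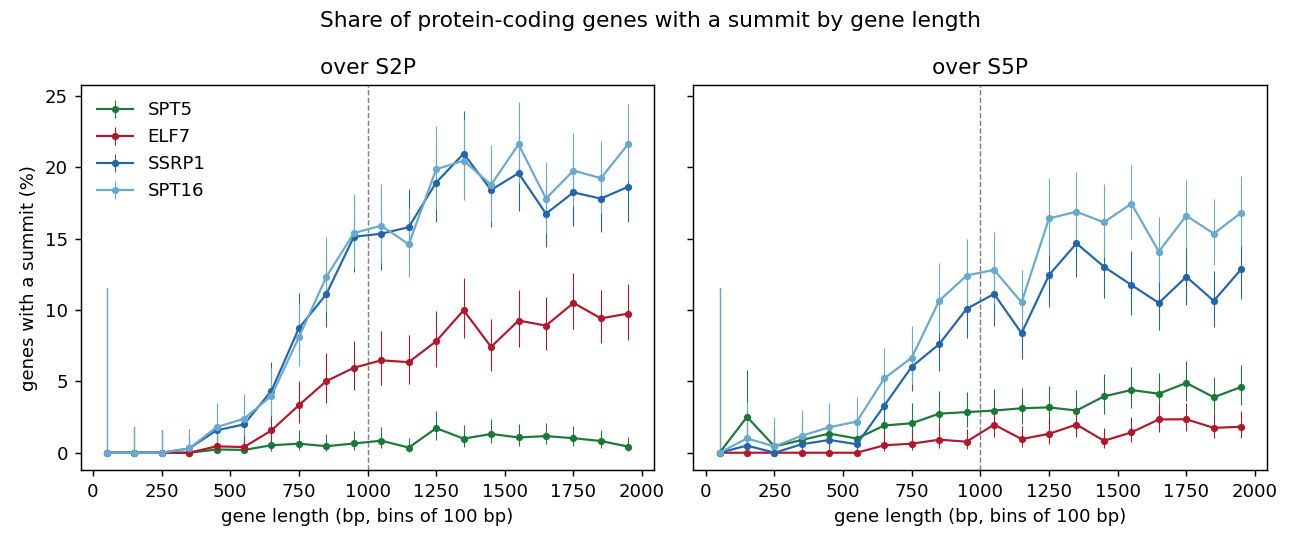
Percent of protein-coding genes with a summit (vertical axis) in bins of 100 bp of gene length (horizontal axis, bp) for the 4 factors over S2P (left) and over S5P (right); bars are exact 95% intervals and the dashed line marks 1000 bp. SSRP1 over S2P climbs from 1.57% at 400 to 500 bp to 15.1% at 900 to 1000 bp, and at 1000 to 1100 bp it is 15.4%.

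The cut-off at 1000 bp fell on no break in this climb. Of 412 genes in the 50 bp below it, 90 were marked (21.8%, 17.9 to 26.2), and of 363 genes in the 50 bp from it upwards, 70 (19.3%, 15.4 to 23.7). The genes next below the cut-off that were in at least 4 lists were NDR1 (999 bp), needed for resistance mediated by a class of immune receptors, NEET (999 bp), an iron-sulfur protein, and AT5G54145 (998 bp). NDR1 scored 14.6 for SSRP1 and 9.03 for SPT16 over S2P, and 5.61 and 7.48 over S5P. Next above it stood AT2G28720 (1001 bp, in 5 lists), AT2G37470 (1002 bp) and AT5G62865 (1004 bp). AT2G28720 scored 9.76 for ELF7, 12.7 for SSRP1 and 11.9 for SPT16 over S2P.

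Position was measured for the strongest summit in each gene, as the distance to the nearer gene end and as a folded position that runs from 0 at an end to 0.5 at the centre, with 0.25 the median of an even placement. The gene table gives no strand, so a gene end may be the start or the end of transcription. SPT5 over S5P lay nearest to gene ends. Its median distance was 104.5 bp in short genes (95% interval 76 to 140), with 41 of 84 genes within 100 bp, against 88.5 bp in genes of 1000 to 1500 bp, 72 bp for 1500 to 2000 bp and 84 bp for 2000 to 5000 bp. Within the short genes the median was 56.5 bp in the 20 genes under 600 bp (36 to 91), 137.5 bp for 600 to 800 bp (77 to 172) and 124 bp for 800 to 1000 bp (76 to 167). It thus followed no steady course with gene length, while the folded median was 0.163 in short genes (0.130 to 0.199) and 0.0269 in genes of 2000 to 5000 bp. SPT5 over S2P had 17 genes, with a median of 219 bp (130 to 302) and a folded median of 0.307.

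ELF7 over S2P lay at a median of 260 bp from an end in short genes (234 to 296), against 502 bp in genes of 1000 to 1500 bp, 696.5 bp for 1500 to 2000 bp and 920.5 bp for 2000 to 5000 bp. Its folded median was 0.319 in short genes (0.294 to 0.370) and 0.40 in genes of 1000 to 1500 bp (0.391 to 0.408), so that it stood farther from the centre, relative to length, in the short genes than in that class. The contrast does not extend to all lengths: the folded median was 0.333 in genes of 2000 to 5000 bp (0.321 to 0.341), inside the short-gene interval, and within the short genes it was 0.288 for 600 to 800 bp and 0.370 for 800 to 1000 bp (0.306 to 0.397). ELF7 over S5P, with 19 genes, had a median of 211 bp (172 to 257) and a folded median of 0.258.

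Over all short genes the FACT subunits had the highest folded medians, those nearest to the gene centre. SSRP1 over S2P stood at 311.5 bp (293 to 333), folded 0.394 (0.371 to 0.410), and SSRP1 over S5P at 309 bp, folded 0.389. SPT16 over S2P stood at 300 bp (284 to 322), folded 0.369 (0.358 to 0.385), and SPT16 over S5P at 265.5 bp (248 to 285), folded 0.348 (0.303 to 0.366). The folded interval of ELF7 over S2P (0.294 to 0.370) holds that of SPT16 over S5P. It also overlaps those of SPT16 over S2P and SSRP1 over S5P. From 800 to 1000 bp ELF7 over S2P, at 0.370, was level with SPT16 over S2P (0.366, 0.349 to 0.385) and SPT16 over S5P (0.352), while SSRP1 over S2P stood at 0.398. In genes of 2000 to 5000 bp the folded medians were 0.180 for SSRP1 and 0.205 for SPT16 over S2P, while their distances, 511 and 571.5 bp, exceeded the 500 bp that are possible in a gene under 1000 bp. Between 0.4 and the centre lay 47.6% of the short genes of SSRP1 over S2P (41.7 to 53.5), against 28.8% in genes of 1000 to 2000 bp (26.5 to 31.1). For SPT16 over S5P the folded median was 0.369 without summits close to another gene, which are described below.

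**Figure D2:**
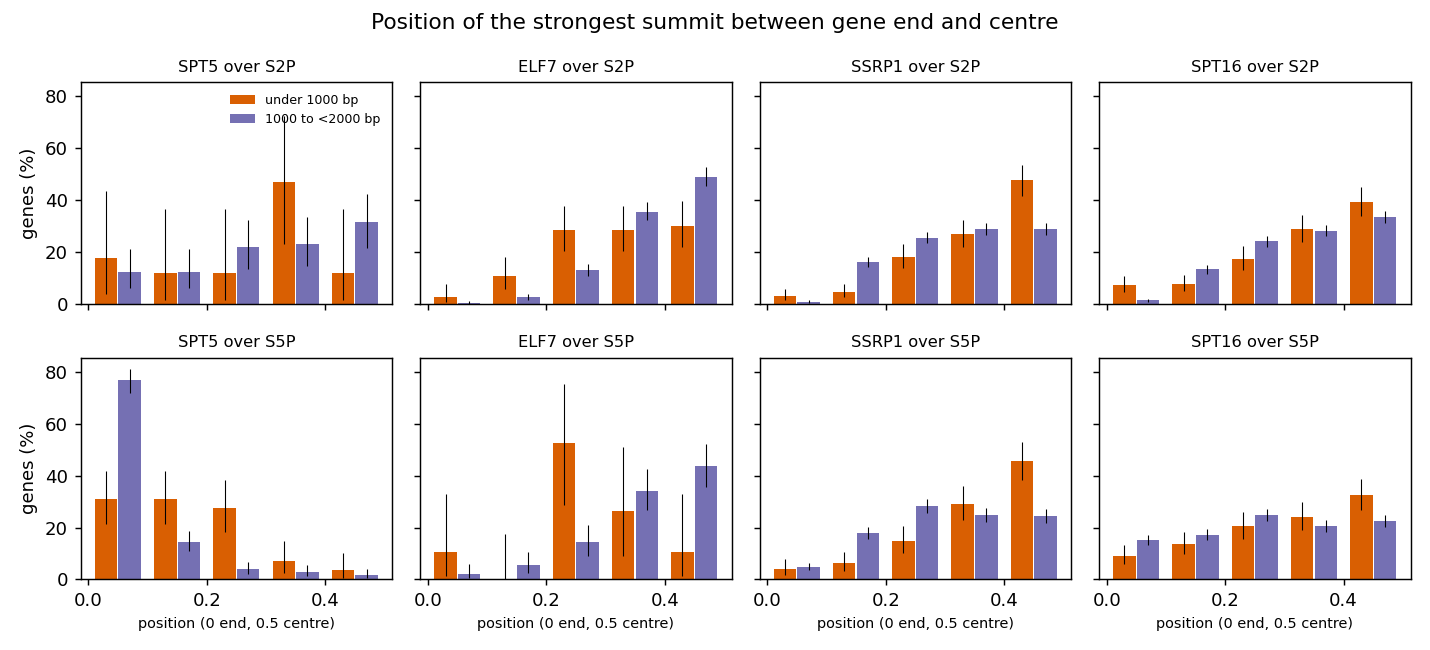
Percent of genes (vertical axis) by folded position of the strongest summit (horizontal axis, 0 gene end and 0.5 centre, bins of 0.1), 1 panel per list, for genes under 1000 bp (orange) and of 1000 to 2000 bp (purple), with exact 95% intervals. SPT5 over S5P has 31.0% of short genes in the bin at the end against 76.9% of genes of 1000 to 2000 bp, and SSRP1 over S2P has 47.6% against 28.8% in the bin at the centre.

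The order of ELF7 and FACT along the gene was read from lists that differ in both factor and RNAPII form, since those share no library. Factor and form cannot be told apart in these pairs. In 74 short genes with both, ELF7 over S2P stood at a median of 238 bp and SSRP1 over S5P at 316.5 bp, and ELF7 was the farther from the end in 27 of 74 genes (36.5%, 25.6 to 48.5). In genes of 1000 to 2000 bp ELF7 was farther in 69.2% (65.0 to 73.2), by a median of 83 bp, and in genes of 2000 bp or more in 87.5% (85.3 to 89.5), by 363 bp. In the other pairing, ELF7 over S5P was farther than SSRP1 over S2P in 4 of 19 short genes (21.1%, 6.05 to 45.6), in 57.7% of genes of 1000 to 2000 bp (49.2 to 66.0), though in 46.3% of those of 1000 to 1500 bp, and in 76.5% of genes of 2000 bp or more. ELF7 over S2P against SPT16 over S5P gave 47.4% of 78 short genes (36.0 to 59.1), 68.8% of genes of 1000 to 2000 bp and 78.3% of genes of 2000 bp or more. From 800 to 1000 bp that share was 52.7% (38.8 to 66.3). ELF7 over S5P against SPT16 over S2P gave 4 of 19 short genes, 53.9% of genes of 1000 to 2000 bp (45.3 to 62.3), with 42.6% at 1000 to 1500 bp, and 70.1% of genes of 2000 bp or more. In all 4 pairs ELF7 was the deeper factor in fewer than 50% of the shared short genes and in most shared genes of 2000 bp or more, with the lengths between less clear.

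**Figure D3:**
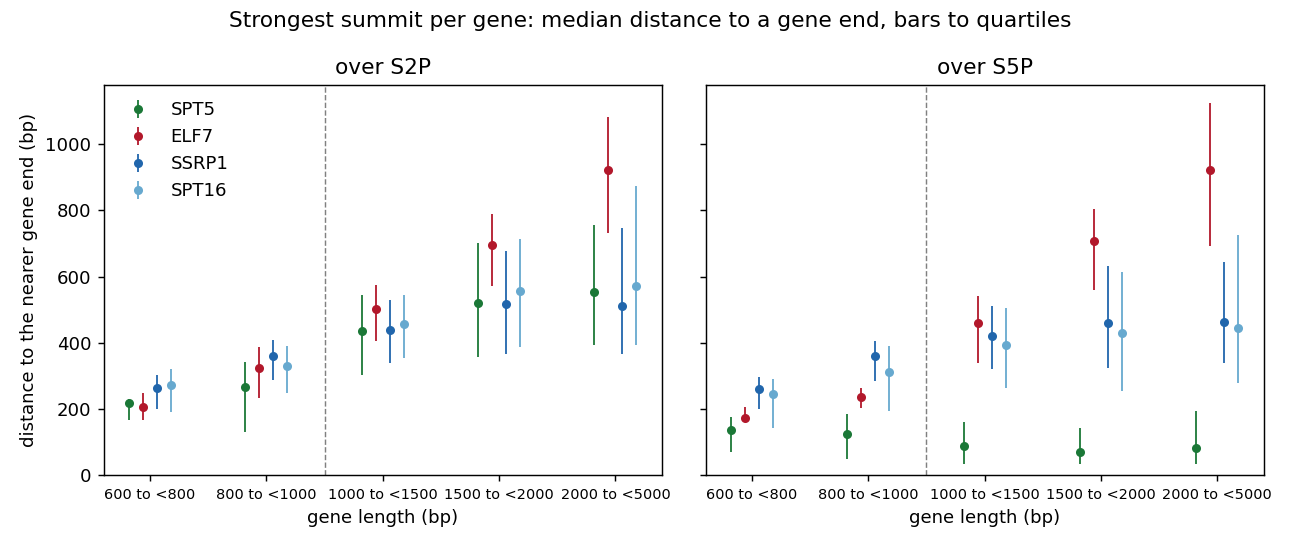
Median distance of the strongest summit to the nearer gene end (vertical axis, bp) in 5 classes of gene length (horizontal axis, bp), with bars to the quartiles, for the 4 factors over S2P (left) and S5P (right); the dashed line marks 1000 bp. At 800 to 1000 bp ELF7 over S2P (323 bp) lies below SSRP1 (360 bp), and at 1000 to 1500 bp above it (502 and 437.5 bp), while SPT5 over S5P stays between 72 and 137.5 bp.

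SSRP1 and SPT16 were found in many of the same short genes. SSRP1 over S2P and SPT16 over S5P shared 180 genes, 62.5% of the SSRP1 genes (56.6 to 68.1) and 68.2% of the SPT16 genes (62.2 to 73.8), which is 4.11% of short genes against 11.7% of all genes. With scores of at least 5 in both lists, 38% of the SSRP1 genes and 68.3% of the SPT16 genes were shared. Their strongest summits were a median of 70 bp apart, and in 133 of 180 genes neither was across the centre from the other (73.9%, 66.8 to 80.1). SSRP1 over S5P and SPT16 over S2P shared 164 genes, 84.1% and 55.6% of each list and 3.75% of short genes against 10.6%, with a median gap of 58 bp and both summits to one side of the centre in 123 of 164 genes (67.7 to 81.4%). With scores of at least 5 in both lists of this pair, 76.5% of the SSRP1 genes and 38% of the SPT16 genes were shared. In genes of 1000 bp or more the first pair shared 70.0% of the SSRP1 and 72.1% of the SPT16 genes. The other pair shared 91.0% and 58.2% there. All these shares were above those of the short genes, though 72.1% and 58.2% lie inside the short-gene intervals, and the difference was not tested. In genes of 1000 to 2000 bp the same side was shared by 73.2% and 74.3%, close to the short genes, with gaps of 96.5 and 95 bp, and in genes of 2000 bp or more by 85.3% and 89.8%, with gaps of 113 and 107 bp.

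SPT5 over S5P shared 11 short genes with SSRP1 over S2P, 13.1% of its own genes and 3.82% of the SSRP1 genes. In genes of 1000 bp or more these shares were 29.0% and 8.79%. In 8 of the 11 both summits lay on the same side of the centre (72.7%, 39.0 to 94.0), and the gap between them had a median of 170 bp. The 11 include AT1G29418, AT2G35750 and AT4G30660, where each of the summits also lay in a gene annotated as non-coding. SPT5 over S5P shared 12 short genes with SPT16 over S2P, 14.3% of its own genes, against 33.0% in genes of 1000 bp or more. Of these 12, 9 had both on the same side (42.8 to 94.5%). In genes of 1000 to 2000 bp the same-side shares were 16.3% (9.20 to 25.8) and 30.5% (21.5 to 40.8), and in genes of 2000 bp or more 8.87% and 15.2%. SPT5 was the nearer to the end in all 11 short genes shared with SSRP1. Against SPT16 it was nearer in 9 of 12 and farther in 3 (25%, 5.49 to 57.2). The numbers of short genes are small, and the difference between length classes was not tested.

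The 2 lists of a factor share its libraries, so genes in both are given only beside the share of all genes in both. SPT5 had 6 short genes in both lists, 35.3% of those over S2P and 7.14% of those over S5P, which is 0.137% of short genes against 0.226% of all genes, and none at scores of at least 5 (0% of either list). ELF7 had 19, 16.8% of those over S2P and all of those over S5P, 0.434% of short genes against 1.79%, and at scores of at least 5 the share of those over S2P was 8.2%. SSRP1 had 176, 61.1% and 90.3%, or 4.02% of short genes against 10.8%. SPT16 had 199, 67.5% and 75.4%, or 4.55% against 13.3%.

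A short gene usually held a single summit in a list. In 18 of 1275 combinations of a gene and a list (1.41%, 0.839 to 2.22) there were 2 summits, against 8.16% in genes of 1000 to 2000 bp, 19.7% in genes of 2000 to 5000 bp and 30.9% above. The widest of these pairs were in emb2184, whose SPT16 summits over S5P were 705 bp apart, and in AT2G33855, at 646 bp. In GASA1, which encodes a small gibberellin-regulated peptide, the SSRP1 summits over S2P were 278 bp apart.

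The strength of the summits was compared within each list by the score the authors deposited, the −log10 of the q-value. In ELF7 over S2P the median short-gene summit scored 5.30 and ranked at percentile 65.2 among the summits of that list inside exactly 1 gene. Genes of 1000 to 2000 bp were at percentile 53.7 there and genes of 2000 to 5000 bp at 48.7. SSRP1 over S2P (median 7.97, percentile 60.3) and SPT16 over S2P (7.03, percentile 60.1) also ranked above the middle of their lists. In genes of 1000 to 2000 bp these lists stood at percentiles 54.5 and 55.9. Over S5P the percentiles were closer to the middle for SSRP1 (5.11, percentile 54.1), SPT16 (4.56, percentile 49.4) and SPT5 (4.38, percentile 49.0). ELF7 over S5P (3.34, percentile 32.1) and SPT5 over S2P (3.12, percentile 40.6) ranked lower, on 19 and 17 summits. Short genes were thus marked less often than longer ones, but where ELF7 or FACT marked them over S2P the scores were not low. A rank above the middle was not particular to short genes, since genes of 1000 to 2000 bp had it in the same lists. All summits of a gene entered the ranks, and longer genes more often held at least 2, the effect of which was not tested.

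Of the 438 marked short genes, 104 were in 1 list, 100 in 2, 68 in 3, 92 in 4, 51 in 5, 19 in 6, 2 in 7 and 2 in all 8. At least 4 lists held 37.9% of them (33.3 to 42.6). The share was 44.6% for marked genes of 1000 to 2000 bp, 45.4% for 2000 to 5000 bp and 41.4% for 5000 bp or more. The most frequent combination was all 4 FACT lists and no other, with 69 genes (15.8%), against 15.3% of marked genes of 1000 bp or more. SPT5 over S5P alone accounted for 42 genes, and the 4 FACT lists with ELF7 over S2P for another 42. Each is 9.59%, against 8.33% and 12.1% of marked genes of 1000 bp or more. A single gene, AGP2, was in an ELF7 list and in no FACT list (0.228%, against 0.548% of marked genes of 1000 bp or more). All 4 factors met in 10 genes (2.28%, 1.10 to 4.16), against 4.81% of marked genes of 1000 bp or more (4.30 to 5.36).

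The genes in all 8 lists were AT1G53885 and AT4G30650, for which the gene table gives no symbol. AT1G53885 (975 bp, chromosome 1) scored 9.19 for SPT5, 8.87 for ELF7, 23.3 for SSRP1 and 27.5 for SPT16 over S2P. Over S5P it scored 3.90, 4.91, 19.5 and 21.0 in the same order. The summits stood in the same order over both forms, with SPT5 at position 20120470 of the TAIR10 build, 10 bp from a gene end, ELF7 at 20120240, 240 bp from it, SPT16 at 20120135, 345 bp from it, and SSRP1 at 20120070, 410 bp from it. For each factor the base was the same over S2P and S5P. A gene of the same length on the same chromosome, AT1G53903, was in 6 lists with scores from 2.42 to 21.3. How reads that fit more than 1 place were treated is stated in no source used here, so copies of near-identical sequence may share signal.

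AT4G30650 (911 bp, chromosome 4) scored 3.18 for SPT5, 8.47 for ELF7, 15.0 for SSRP1 and 14.7 for SPT16 over S2P, and 7.46, 10.4, 18.7 and 16.1 over S5P. SPT5 stood 90 bp from a gene end and the other factors between 260 and 289 bp from it. This gene opened the longest run of neighbouring marked short genes, AT4G30650, AT4G30660, AT4G30662 and AT4G30670. AT4G30660 scored 23.7 for SSRP1 and 23.0 for SPT16 over S2P and 8.26 for SPT5 over S5P, while AT4G30662 was marked by SPT5 alone, with 4.90 over S2P and 9.43 over S5P. In all, 14 runs of at least 2 neighbours held 33 of the 438 genes.

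The highest short-gene score of any list was that of OEP6 (636 bp, chromosome 3), annotated as an outer envelope protein. Over S2P its SSRP1 score was 43.1 at position 23333749, its SPT16 score 32.1 at 23333690 and its ELF7 score 19.5 at 23333605. Over S5P it scored 26.5, 16.1 and 8.29, and no SPT5 list held it. The ELF7 and SPT16 summits were 206 and 291 bp from one gene end, and that of SSRP1, across the centre, 285 bp from the other. AT4G33960 (615 bp) followed, with 15.4 for ELF7, 36.5 for SSRP1 and 23.4 for SPT16 over S2P and with 10.9 for SSRP1 and 6.06 for SPT16 over S5P. AT5G41400 scored 34.2 for SSRP1 and 28.8 for SPT16 over S2P, AT1G07135 32.6 and 27.4, and AT3G50800 22.2 and 30.0.

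**Figure D4:**
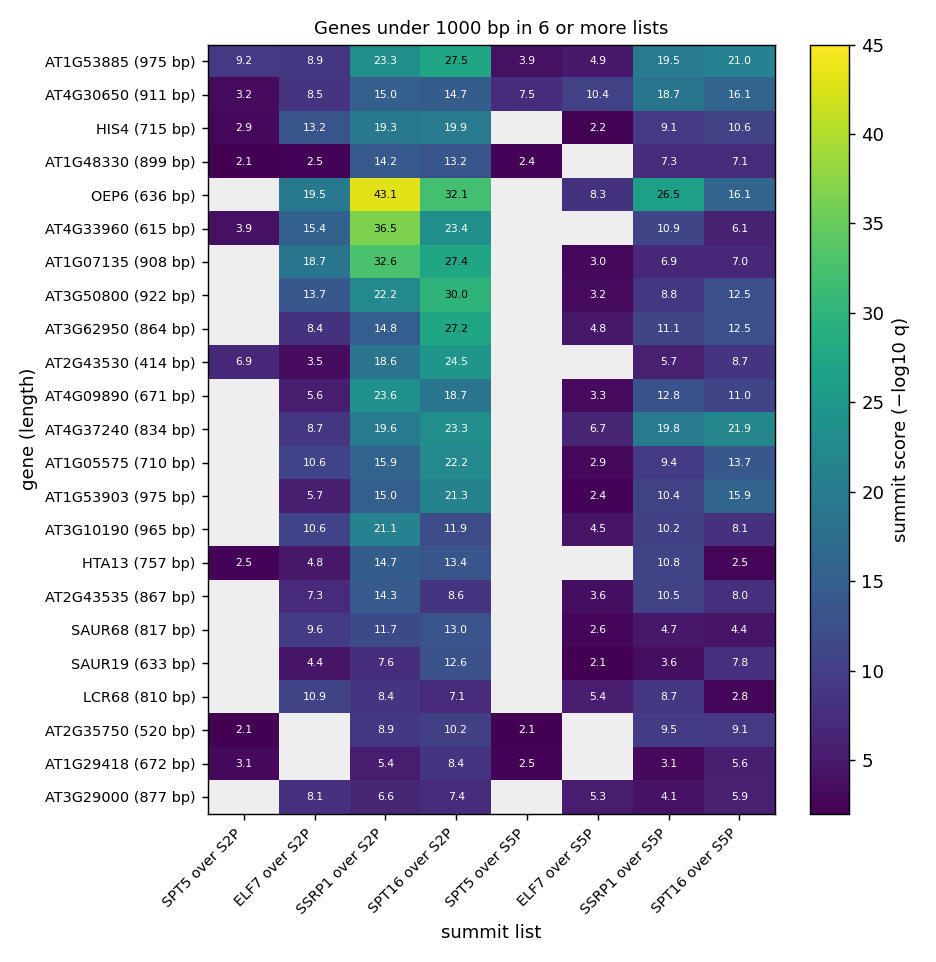
Authors' summit score (−log10 q, colour and printed value) of the 23 genes under 1000 bp in at least 6 lists (rows, with length in bp) in the 8 lists (columns); grey marks no summit, and scores are comparable within a column only. All 23 genes are in the 4 FACT lists, OEP6 has the highest value (43.1, SSRP1 over S2P), and SPT5 over S5P is grey in 18 rows.

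The leading SPT5 genes were others. Over S5P the highest scores were those of AT2G25964 (13.0, 112 bp from a gene end), AT2G31141 (10.2, 122 bp), AT4G25510 (9.76, 102 bp), AT2G44175 (9.46, 74 bp) and AT4G30662. AT2G25964 and AT2G44175 were in no other list. AT2G31141 and AT4G25510 also had SPT16 summits over S5P, with scores of 5.70 and 10.1, at 108 and 98 bp from an end. Over S2P AT1G53885 led, followed by NDPK1, the gene of a nucleoside diphosphate kinase, with 7.13, and AT2G43530 with 6.93. NDPK1 also scored 5.13 for ELF7, 2.12 for SSRP1 and 4.64 for SPT16 over S2P and was in no list over S5P.

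The short genes with a summit more often carried a gene symbol in the table, 123 of 438 (28.1%) against 665 of 4377 (15.2%), so that groups defined by name cover the minority. The groups hold only genes matched by a symbol or synonym in the table, and members of a family that carry neither are not counted. Histones package DNA into nucleosomes and are made in bulk when DNA is replicated. All 15 short genes matched as histones were in at least 1 list (78.2 to 100), against 10.0% of short genes. Of 51 matched histone genes of 1000 bp or more, 16 were marked (31.4%, 19.1 to 45.9). ELF7, SSRP1 and SPT16 over S2P each marked 13 of the 15 (86.7%), against 2.58%, 6.58% and 6.74% of all short genes. SSRP1 over S5P marked 11 (73.3%, against 4.46%) and SPT16 over S5P 14 (93.3%, against 6.03%). ELF7 over S5P and SPT5 over S2P each marked 2 (13.3%, against 0.434% and 0.388%). SPT5 over S5P marked 0 (0 to 21.8%, against 1.92%). HIS4, an H4 gene of 715 bp, was in 7 lists with 2.87 for SPT5, 13.2 for ELF7, 19.3 for SSRP1 and 19.9 for SPT16 over S2P, and 2.23, 9.07 and 10.6 for the last 3 over S5P. The H2A gene HTA13 scored 14.7 for SSRP1 over S2P and 10.8 over S5P, the H2B gene HTB11 10.3 for ELF7 and 15.0 for SSRP1 over S2P, and AT5G10400, an H3.1 gene, 16.8 for SPT16 over S2P. AT5G10390, another H3.1 gene of that pair, had a single summit, with 4.45 for SPT16 over S5P. The H3.1 genes encode the same protein, and their reads may not be separable.

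SAUR genes, small genes induced early by auxin that promote cell expansion, formed the next large group. Of 64 matched under 1000 bp, 25 were marked (39.1%, 27.1 to 52.1), and of 16 of 1000 bp or more, 10 (62.5%, 35.4 to 84.8). SSRP1 over S2P marked 22 (34.4%, against 6.58% of all short genes), SPT16 over S2P 21 (32.8%, against 6.74%) and ELF7 over S2P 14 (21.9%, against 2.58%). SPT16 over S5P marked 14 (21.9%, against 6.03%) and SSRP1 over S5P 13 (20.3%, against 4.46%). ELF7 over S5P marked 2 (3.1%, against 0.434%), SPT5 over S5P 1 (1.56%, against 1.92%) and SPT5 over S2P 0 (against 0.388%). SAUR50 (AT4G34760) had the highest score, 30.7 for SSRP1 over S2P, with 11.2 for SPT16 and 8.23 for ELF7. SAUR23 scored 18.8 for SSRP1 and 20.7 for SPT16 over S2P and SAUR68 11.7 and 13.0. Several marked SAUR genes adjoin each other, such as AT5G18010 (SAUR19), AT5G18020 (SAUR20) and AT5G18030, and such copies may share reads.

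The other groups stand beside the same 10.0% of all short genes. That share was 1.54% under 300 bp and 18.7% from 800 to 1000 bp, and the groups were not matched for length. Short genes with a symbol were also marked more often, 123 of 665. The 10.0% is thus a low base for groups matched by name. Among calmodulin-like genes, whose products bind calcium, 3 of 6 were marked (11.8 to 88.2%), led by CML23 with 19.5 for SSRP1 and 12.9 for SPT16 over S2P. Of 10 ERF and CBF transcription factor genes 3 were marked, with an interval (6.67 to 65.2%) that holds 10.0%: CBF2, a regulator of the cold response, scored 21.3 for SPT16 and 16.4 for SSRP1 over S2P, CEJ1 7.64 for SSRP1 over S2P, and RAP2.11 5.22 for SPT16 over S5P. Of 6 cold-induced and late embryogenesis genes LTI30, a dehydrin gene, was the only member marked (0.421 to 64.1%), with 4.74 for SPT16 over S2P. Metallothioneins, which bind metals, and thioredoxins had 3 of 6 (11.8 to 88.2%), all of them metallothioneins (MT1C, MT2B and MT3) and all over S2P alone. Of 23 members of 1000 bp or more, SPT16 over S5P marked 11. The other lists over S5P marked 6 (SSRP1), 2 (SPT5) and 1 (ELF7). Photosystem and antenna genes had 3 of 5 (14.7 to 94.7%), PSBTN, PSAH2 and PSAG, again over S2P alone, with scores from 2.03 to 5.30. Of 49 members of 1000 bp or more, SSRP1 over S5P marked 7, SPT16 over S5P 6, and SPT5 and ELF7 over S5P 0. Among all marked short genes, 8.90% were in SSRP1 and SPT16 over S2P and no other list. A further 4.57% were in these 2 lists and ELF7 over S2P only.

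Arabinogalactan proteins, which are cell surface proteins with large sugar chains, had 4 of 21 marked (19.0%, 5.45 to 41.9), an interval that holds 10.0%. AGP20 scored 25.1 for SPT16 and 21.1 for SSRP1 over S2P, AGP1 17.7 and 12.7, and AGP12 11.2 and 17.4. AGP2 had its single summit for ELF7 over S2P, with 7.96. Ubiquitin-related and SKP1-like genes had 4 of 23 (4.95 to 38.8%), which also holds it. UBQ5, a fusion of ubiquitin and a ribosomal protein, scored 15.5 for SSRP1 over S2P, UBQ6 9.12, SK11 4.98 for SPT5 over S5P and SUMO5 4.90 for SPT16 over S5P. Lipid transfer proteins and defensins formed the largest group, and 4 of its 82 genes were marked (4.88%, 1.34 to 12%). LCR68, a defensin gene, was in 6 of the lists, with 10.9 for ELF7 over S2P and 8.72 for SSRP1 over S5P, and the lipid transfer gene LP1 scored 10.8 for SPT16 over S2P. None of 4 small heat shock protein genes (HSP17.4, HSP17.6II, HSP17.6A and HSP18.2) had a summit in any list, an interval of 0 to 60.2% on so few genes. RPL27AB, the single gene under 1000 bp that was matched by name as a cytosolic ribosomal protein gene, had none either, and it does not stand for the ribosomal protein genes that carry no symbol in the table.

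**Figure D5:**
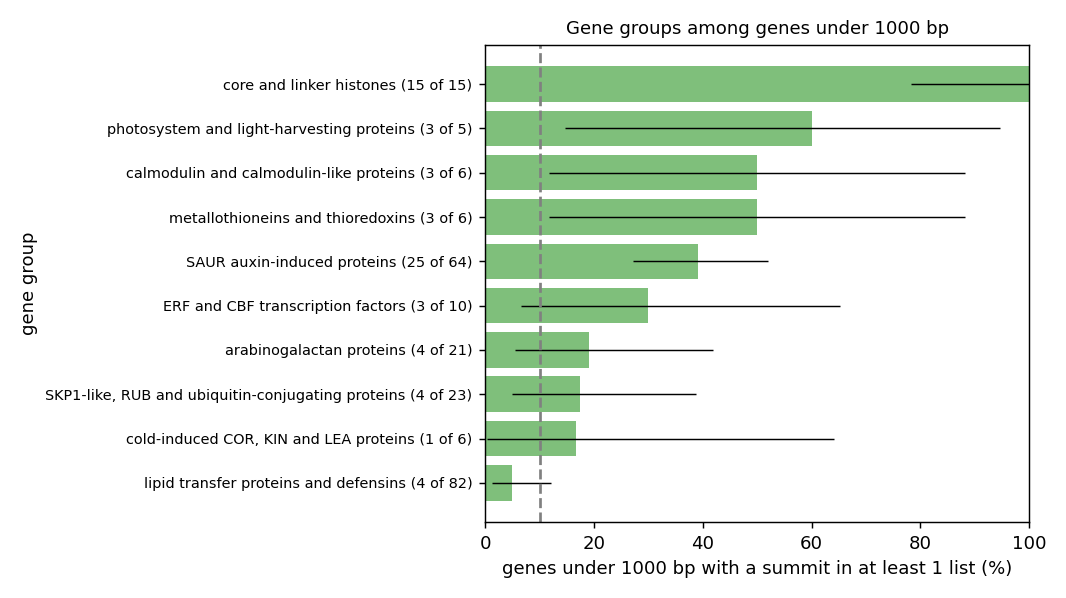
Percent of the genes under 1000 bp with a summit in at least 1 list (horizontal axis) for 10 named gene groups (vertical axis, marked of all), with exact 95% intervals; the dashed line is the 10.0% of all short genes. The genes matched as histones reach 100% (15 of 15) and SAUR genes 39.1% (25 of 64), and the interval of lipid transfer proteins and defensins (1.34 to 12%) holds the dashed line. The line includes short genes without a symbol, while of the 665 with a symbol 123 were marked.

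Many summits in short genes lay close to another gene. In a gene under 1000 bp a summit is at most 500 bp from a gene end. Its distance to a neighbour thus depends in part on gene length, and the gaps between genes were not measured. Of the 1293 summits 249 (19.3%, 17.1 to 21.5) were within 250 bp of another protein-coding gene, against 7.06% in genes of 1000 to 2000 bp (6.49 to 7.67). The share was 73.8% for SPT5 over S5P (62 of 84), 27.7% for SPT16 over S5P, 15.7% for SSRP1 over S5P and between 5.26% and 12% in the other 5 lists. In genes of 1000 to 2000 bp SPT5 over S5P had 63.5%. Without such summits 7.54% of short genes were marked in at least 1 list. Whether these summits belong to the neighbour was not tested.

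Among the same 1293 summits, 91 (7.04%, 5.70 to 8.57) lay in a gene annotated as non-coding as well, against 3.09% in genes of 1000 to 2000 bp. Long non-coding genes held 74 of them, over 24 short coding genes. The snoRNA genes, whose products guide the modification of ribosomal RNA, held 10, over AT1G29418 and AT2G35750. AT2G35750 (520 bp) was in 6 lists, with 8.88 for SSRP1 and 10.2 for SPT16 over S2P and 9.54 and 9.10 over S5P, and AT1G29418 (672 bp) scored 5.37 and 8.39, then 3.10 and 5.62. At both genes SPT5 was present over both forms, with scores from 2.08 to 3.12. To which of the overlapping genes such a summit belongs was not tested.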

How the data were processed

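The deposited data used here were 8 lists of peak summits of 4 elongation factors over 2 RNAPII forms. The submitters' processing notes name the TAIR10 build and the tools MACS3, deepTools, Bowtie2, Trimmomatic 0.39 and SAMtools 1.16.1; no source used here gives the MACS3 settings, the control or the pooling of libraries. The score deposited by the authors is a −log10 q-value. Its lowest value was 2.00, so q was at most 0.01.

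Summit positions, counted from 1, were assigned to the 27444 protein-coding nuclear genes of an NCBI RefSeq gene table (TAIR10.1) with Python 3.11.15, pandas 2.3.3, numpy 2.4.6 and scipy 1.17.1; figures used matplotlib 3.10.9. No coordinate of that table is printed. The assignment was tested on simulated data: of 200 planted summits, 182 lay in exactly 1 gene, and all 182 were assigned to the planted gene with the right distance.

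Shares have exact Clopper-Pearson 95% intervals and medians exact binomial intervals from order statistics; both cover counting error only. A count of 0 was also taken to allow 3 counts of the total, which is a different limit from the exact interval. No test was made, because the lists hold no value per library. No source used here says whether the libraries of a group came from separate cultures.

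Genes were named by rule: the 5 highest scores per list, the 10 genes in the most lists and all in 8 lists, up to 4 members per group by number of lists and score, and the 3 genes on either side of 1000 bp in at least 4 lists. Other genes named as examples, among them the unmarked members of small groups, were chosen after their values were seen. Groups were matched by symbol or synonym, 14 of them planned and 8 added after values were seen, and 6 wrongly matched genes were removed by name. The members and lists were chosen with earlier results of these data known. Positions oriented from the 5′ end and promoter motifs, also planned, were not analysed here, since strand and promoter sequence were not at hand.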

Additional observations from a re-analysis of the deposited data

How the results depend on the processing

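Of 222 values recomputed under other settings, 124 stayed within the interval of the main value. Short-gene summits made up 5.03% of summits in 1 gene, against 1.77% below 800 bp, 8.98% below 1200 bp, 5.71% and 6.72% at scores of at least 5 and 10, and 5.91% when a summit could lie in more than 1 gene. The 10.0% of short genes marked became 5.80%, 12.7%, 6.95%, 3.18% and 12.6% under the same settings, and 7.54% without summits within 250 bp of another gene, a setting chosen after the data were seen. Folded medians moved to 0.270 for ELF7 over S2P (below 800 bp), 0.115 for SPT5 over S5P (below 1200 bp) and 0.369 for SPT16 over S5P (without summits near another gene). Shares in both lists of a factor moved to 64.3% for SPT16 over S5P (below 800 bp) and, at scores of at least 5, to 0% for both SPT5 shares, 8.2% for ELF7, 41.7% for SSRP1 and 45.9% for SPT16 over S2P. For the FACT pairs, scores of at least 5 left 38% of the SSRP1 genes over S2P (with SPT16 over S5P), and 76.5% of the SSRP1 and 38% of the SPT16 genes in the other pair. Requiring summits within 250 bp gave 55.9% and 61.0%, and 74.4% and 49.2%. For the settings other than the length limits, fewer or more summits enter by construction. The FACT shares use lists of different RNAPII forms, a choice made after the data were seen; the planned ones over the same form, which share RNAPII libraries, were computed at the main setting but are not given, and their alternatives were not run. No paired analysis was possible because the lists hold no column per replicate, and for the same reason no library could be left out. Depth is unknown, so a gene without a summit is not shown to lack the factor.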
